A study of Mus musculus with 6 samples.

Results

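Genes whose transcripts lay below the control level throughout angiotensin II infusion were taken from RNA sequencing of hearts of wild-type mice. A gene belonged to this set if its highest RPKM (read number corrected for transcript length and library size) in the 4 infused libraries was at most the lower of the 2 control values divided by 1.4. Its mean control RPKM also had to be at least 2. Clock genes and clock output genes, Ucp3, potassium channel genes and small RNA genes were left out by name, which removed 14 genes that met the limits. Among the 14 were Dbp, Tef, Hlf, Per2, Per3, Cry2, Nr1d2 and Gm129. In these the lower control divided by the highest infused value ran from 1.52 in Cry2 to 3.04 in Hlf. The rule was met by 84 genes of 22556 in the table, of which 9339 had a mean control RPKM of at least 2. The same limits turned round, with every infused library at least 1.4 times the higher control, were met by 168 genes.

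The groups were control hearts (0 days of infusion), hearts after 7 days and hearts after 28 days, with 2 libraries each. Angiotensin II, a peptide hormone of blood pressure control, was infused subcutaneously from an osmotic minipump at 1000 ng per kg body weight each minute. All mice carried the wild-type genotype, and the labels give neither their age, sex or strain nor what the control mice received. The sample details used here hold no time of day of collection, so its part in the levels of clock-controlled genes was not tested. Nothing says that the libraries of a group came from separate animals, so p-values measure the spread between these libraries, which may be technical.

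The 84 genes were chosen by their control and infused RPKM values, so their levels against the controls are a description and were not tested. The order of 28 and 7 days was not used by the rule, and that comparison was tested, but only among genes that stayed low at both times. A gene low at 7 days that came back above the limit by 28 days could not be a member. The lowest control divided by the highest infused value lay nearest the limit in Agtpbp1 at 1.4015, Sorcs2 at 1.4023 and Mgl2 at 1.4025. Zfp874b at 1.4048 and Shprh at 1.41 came next inside it. Just outside were Bach1 at 1.3979, Mlf1 and Ccdc28a at 1.39, and Rev1 and Amd2 at 1.39.

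The heart burns mainly fatty acids, with branched-chain amino acids and glucose as other fuels, and each route depends on mitochondrial carriers, dehydrogenases and their phosphatases. Muscle protein is renewed by ubiquitin ligases, many of which recruit targets through kelch or F-box proteins. Interferon acts through its receptors to induce families of GTPases that guard cells against intracellular microbes. Genes of all 3 systems were among the 84.

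Depth, read from the step that 1 read makes in low RPKM values, was estimated at 10900000 to 14600000 reads per library. Between 15636 and 16036 genes lay above 0 in a library. The 9 cardiomyocyte markers summed to between 38853 and 52579 RPKM in each library. The 6 atrial cardiomyocyte markers set control replicate 1 apart, with 320.1 RPKM there, 3018 RPKM in control replicate 2, 2038 and 2227 RPKM at 7 days and 2420 and 3427 RPKM at 28 days. The 8 macrophage markers summed to 321 and 326 RPKM in controls, 543 and 599 RPKM at 7 days and 291 and 207 RPKM at 28 days. The 8 fibroblast markers summed to 442 and 443 RPKM in controls, 725 and 736 RPKM at 7 days and 504 and 390 RPKM at 28 days. In heart tissue of mixed cells, fewer cells of a type and less RNA per cell cannot be told apart. The part of these shifts in the levels below was not tested.

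Across all 11096 tested genes (mean RPKM of at least 1), the median of 7 days minus control was 0.14 on the log2(RPKM + 0.5) scale. That of 28 days minus control was 0.01. In limma fits, 252 genes (2.27%) were lower and 1461 (13.2%) higher at 7 days, which became 450 lower and 710 higher after median ratio scaling. At 28 days 171 genes (1.54%) were lower and 318 (2.87%) higher. Of the 84 members, 83 were tested, and 71 were called lower at 7 days, where the background was 2.27% of all tested genes. At 28 days 65 were called lower, against a background of 1.54%. The members' median difference from control was -0.89 at 7 days and -0.95 at 28 days. It was -0.83 and -0.86 without control replicate 1, the library low in atrial markers. Without control replicate 2 it was -0.93 and -0.97. Since the rule used these values, nothing is read from these counts and medians.

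The members had a median level of 50.5% of the control mean at 7 days and 48.4% at 28 days. Both infused means were below 50% of the control mean in 31 of the 84. Levels ran widely, with control means from 2.07 RPKM to 142 RPKM. The 5 members with the highest control means were Herpud1, Gpcpd1, Slc25a34, Iigp1 and Ces1d.

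**Figure D1:**
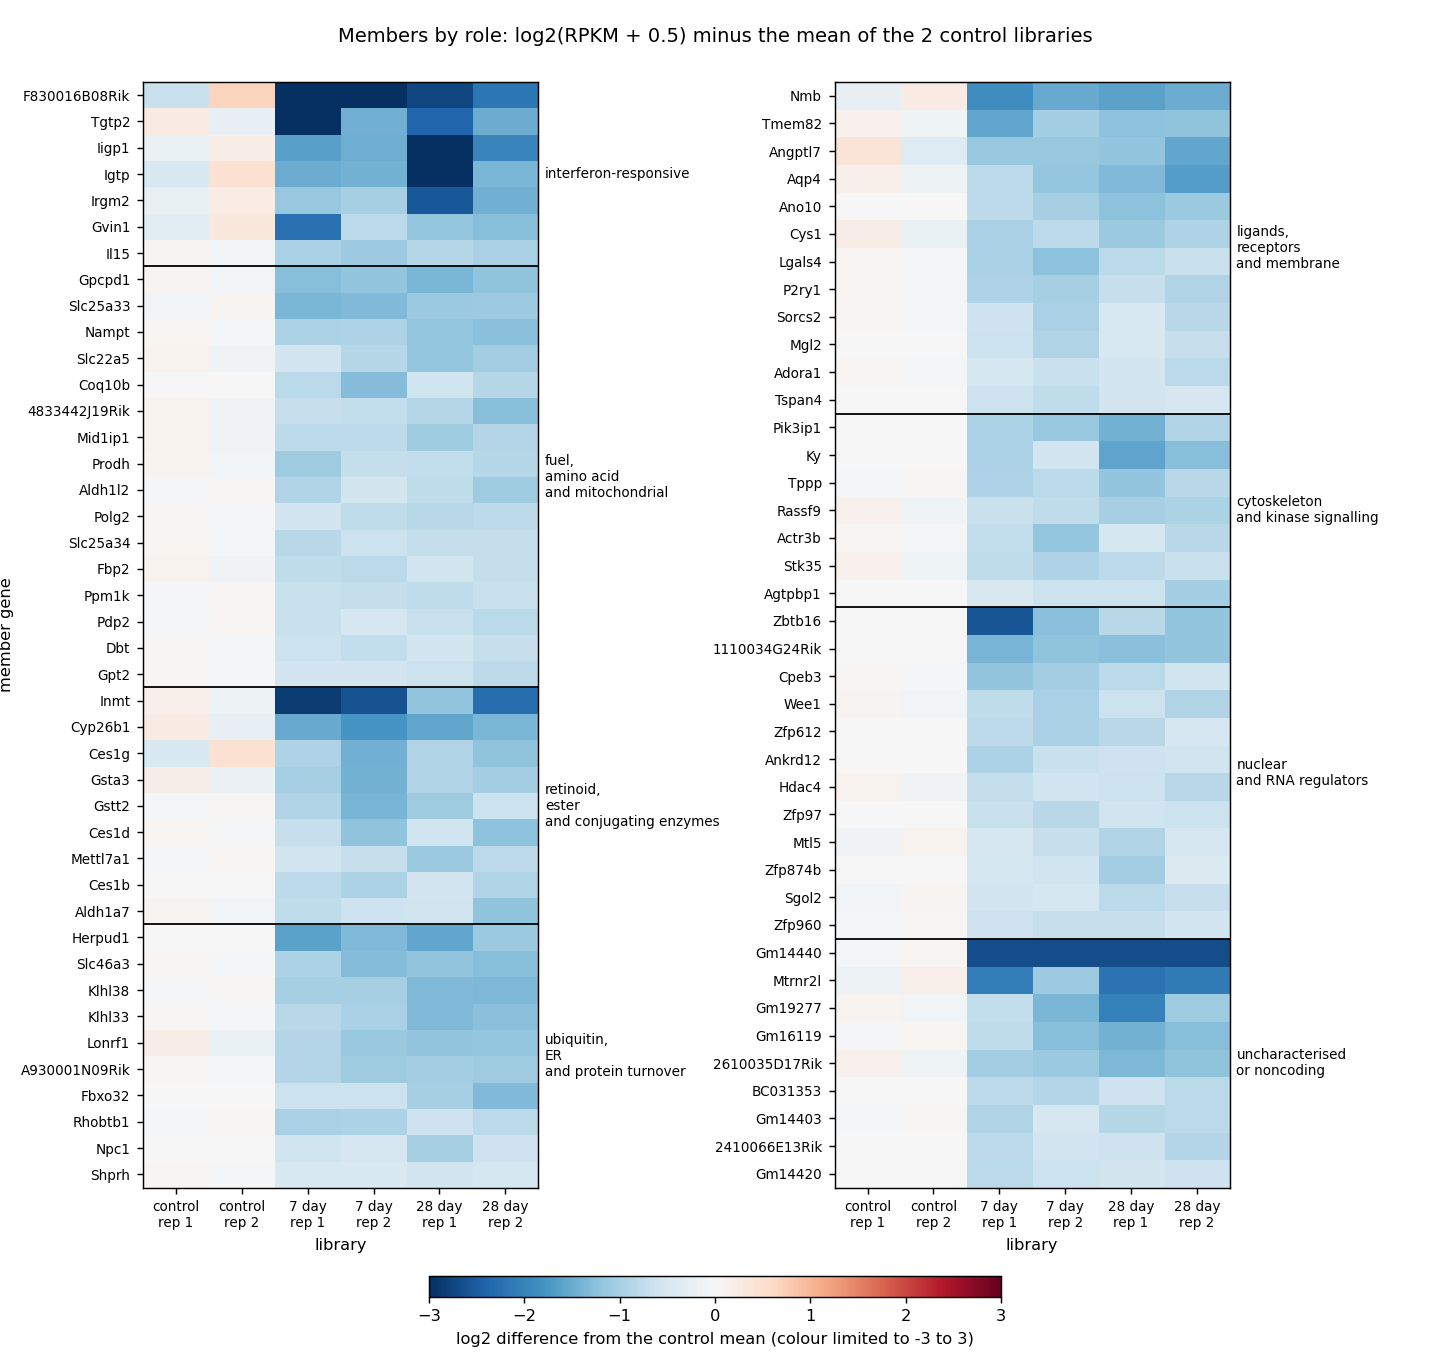
Rows are 82 of the 84 members by role and columns the 6 libraries; colour gives log2(RPKM + 0.5) minus the mean of the control libraries. Every infused library is below both controls, as the rule requires, and the 6 members farthest below control were F830016B08Rik, Gm14440, Tgtp2, Inmt, Iigp1 and Mtrnr2l.

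The interferon-responsive genes held 8 members, and as a group they lay lowest, at a median of 34.3% of control at 7 days and 25.04% at 28 days. The other 76 members stood at 51.4% and 50.8%. Iigp1, Igtp, Irgm2 and Tgtp2 encode immunity-related GTPases, which in mice take part in the defence against intracellular parasites and bacteria. F830016B08Rik, which RefSeq also lists as Ifgga4 among the interferon-gamma-inducible GTPases, is the protein-coding neighbour of Iigp1. Gvin1 encodes a very large interferon-inducible GTPase and Il15 a cytokine that sustains natural killer and memory T cells.

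Igtp and Irgm2 are also neighbours, and with Tgtp2 they are the 3 members whose promoter held both an interferon-gamma activated site (GAS, letters TTCNNNGAA) and the core of an interferon-stimulated response element (ISRE, TTTC repeated after 2 bases). Their sequences are shown because they share this arrangement and because the family had the lowest levels. Each covers 300 bases around the RefSeq start on GRCm38.p6, most of them upstream, 5′ to 3′ along the gene, with both motifs in capitals. The Igtp promoter is chr11:58199306-58199605 on the plus strand, that of Irgm2 chr11:58214727-58215026 on the plus strand, and that of Tgtp2 chr11:49064163-49064462 on the minus strand.
Igtp: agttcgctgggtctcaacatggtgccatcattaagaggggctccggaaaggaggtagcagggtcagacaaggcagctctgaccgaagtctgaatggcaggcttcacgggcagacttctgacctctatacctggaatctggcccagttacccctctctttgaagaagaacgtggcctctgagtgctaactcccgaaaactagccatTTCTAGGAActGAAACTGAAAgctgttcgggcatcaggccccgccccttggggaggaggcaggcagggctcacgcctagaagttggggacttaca
Irgm2: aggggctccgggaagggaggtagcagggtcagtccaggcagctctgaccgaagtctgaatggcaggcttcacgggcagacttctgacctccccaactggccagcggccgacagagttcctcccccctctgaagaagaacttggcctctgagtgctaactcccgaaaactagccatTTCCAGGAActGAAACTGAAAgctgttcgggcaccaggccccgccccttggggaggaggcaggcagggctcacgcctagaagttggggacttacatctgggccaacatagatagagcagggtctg
Tgtp2: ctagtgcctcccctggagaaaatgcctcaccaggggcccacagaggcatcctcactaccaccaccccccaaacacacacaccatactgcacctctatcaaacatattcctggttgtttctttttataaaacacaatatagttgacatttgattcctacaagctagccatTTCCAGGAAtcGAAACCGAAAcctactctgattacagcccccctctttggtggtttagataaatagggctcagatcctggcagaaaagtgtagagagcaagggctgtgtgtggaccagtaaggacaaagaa

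In all 3 promoters the ISRE core, on the reverse strand, follows the GAS after 2 bases. The longest run shared by the Igtp and Irgm2 promoters was 61 bases, against 17 for Irgm2 and Tgtp2 and 11 for Igtp and Tgtp2. Both motifs together were present in 3 of the 59 members with a promoter in the table, 5.08%, against 0.47% of 7443 promoters of genes with a mean control RPKM of at least 2. These motifs were added after the members were seen, and a match describes the letters only.

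Iigp1 had 70.5 and 94.6 RPKM in controls, 26.0 and 29.4 RPKM at 7 days and 9.67 and 20.5 RPKM at 28 days. Igtp had 34.0 and 65.3 RPKM in controls, 16.4 and 17.3 RPKM at 7 days and 5.25 and 17.9 RPKM at 28 days. Irgm2 had 22.5 and 31.2 RPKM in controls, 11.8 and 12.98 RPKM at 7 days and 4.10 and 9.45 RPKM at 28 days. In each of them replicate 1 was the lowest 28 day library, and both 28 day libraries lay below both 7 day libraries in Iigp1 and Irgm2 but not in Igtp. Igtp and Irgm2 share annotated exons on the same strand in GENCODE M21, so reads from them may not have been told apart.

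Between the infusion times, 28 minus 7 days was -0.95 in Iigp1 (SE 0.31, limma adjusted p = 0.142) on the log2 scale. It was -0.93 in Irgm2 (SE 0.33, limma adjusted p = 0.168) and -0.76 in Igtp (SE 0.51, limma adjusted p = 0.428), none past the threshold of 0.05. Without 28 day replicate 2 all 3 passed, at -1.47 in Iigp1, -1.48 in Irgm2 and -1.59 in Igtp, with limma adjusted p of 0.0150, 0.0160 and 0.0474. Without 28 day replicate 1 none of the 3 did, and Igtp turned to 0.08.

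Il15 did not follow this course, with 26.9 and 23.6 RPKM in controls, 12.6 and 11.6 RPKM at 7 days and 13.8 and 12.5 RPKM at 28 days. Its levels at the infusion times overlapped, and 28 minus 7 days was 0.11 (SE 0.12, limma adjusted p = 0.613). F830016B08Rik had 5.47 and 14.8 RPKM in controls, 0.472 and 0.672 RPKM at 7 days and 0.948 and 1.65 RPKM at 28 days. Its level was 5.64% of control at 7 days and 12.8% at 28 days, the lowest of the 8 genes at both times. Gvin1 had 5.39 and 8.52 RPKM in controls, 1.05 and 3.76 RPKM at 7 days and 2.76 and 2.48 RPKM at 28 days, with a single low library in 7 day replicate 1.

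Tgtp2 is uncertain, because the table also holds a merged entry for Tgtp1 and Tgtp2, 2 near-identical copies. Tgtp2 alone had 18.2 and 12.9 RPKM in controls, 0.00271 and 5.32 RPKM at 7 days and 2.56 and 5.16 RPKM at 28 days. The value in 7 day replicate 1 is worth less than 1 read, as a read shared out between copies would be. The sum of both entries was 34.1 and 17.4 RPKM in controls, 6.52 and 9.74 RPKM at 7 days and 4.46 and 8.77 RPKM at 28 days, so that the infused libraries also lay below the controls in the sum. The 28 minus 7 day difference of 1.28 for Tgtp2 alone (SE 0.97, limma adjusted p = 0.478) turned to -0.49 without 7 day replicate 1.

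Further genes of the same GTPase families lay below control at 28 days. This list was chosen after the members were seen. It held the symbols that start with Gbp, Irgm, Irga, Irgb, Iigp, Tgtp or Gvin, with Igtp and Ifi47, and 5 of its 17 tested genes are members. The other 12 include the merged entry for Tgtp1 and Tgtp2, which may share reads with the member Tgtp2 and so is not separate from it. In the 12 outside the members both 28 day libraries lay below both controls, against 25.3% of the 11013 tested genes outside the members. All 4 infused libraries did so in 5 of the 12, against 10.6%. Over all tested genes 2.27% were called lower at 7 days and 1.54% at 28 days. Of the 17, limma called 1 lower at 7 days, the member Iigp1, and 8 at 28 days, 6 of them outside the 84. None was called higher by limma at either time, and 0 were higher at an unadjusted p under 0.05. How many passed at each time depended on the fit: with only the 2 groups compared, 5 were called lower at 7 days and 1 at 28 days, so no order of the times is read from these counts. Outside the members, the guanylate-binding protein gene Gbp3 had 23.2 and 13.8 RPKM in controls, 15.1 and 18.99 RPKM at 7 days and 3.07 and 6.84 RPKM at 28 days. It fell at 28 days relative to controls by 1.85 (limma adjusted p = 0.0383) and relative to 7 days by 1.77 (limma adjusted p = 0.0412). In 28 against 7 days, 3 of the 17 were called lower, where 4.26% of all tested genes were. That count was 0 after median ratio scaling, after quantile normalization, with the replicate number as a block and with no filter on low values. The call of Gbp3 against 7 days thus did not hold in those settings.

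Irgm1, a further member of the immunity-related family, had 35.4 and 28.9 RPKM in controls, 17.5 and 21.05 RPKM at 7 days and 6.71 and 14.9 RPKM at 28 days. It fell at 28 days by 1.62 relative to controls (limma adjusted p = 0.0402), and its 7 day value did not pass (limma adjusted p = 0.171). Gm4951 and Gm4841, which RefSeq lists as Ifgga2 and Ifgga3, lie beside Iigp1 and F830016B08Rik. Gm4951 had 1.37 and 1.74 RPKM in controls, 1.23 and 1.21 RPKM at 7 days and 0.184 and 0.584 RPKM at 28 days. Gm4841 had 1.88 and 6.70 RPKM in controls, 0.967 and 1.20 RPKM at 7 days and 0.215 and 3.02 RPKM at 28 days, with 1 library of the 28 day pair within the control range.

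Replicate 1 was below replicate 2 in 7 of the 17 GTPase genes in controls, in 16 at 7 days and in 16 at 28 days. The count of 8 lower at 28 days was 4 without 28 day replicate 1, 12 without 28 day replicate 2, 1 without control replicate 2 and 0 without control replicate 1. It was also 1 without either 7 day library, 4 with no mean-variance trend and 0 with no filter on low values. The count of 1 lower at 7 days ran from 0 to 5 without 1 library, the 5 being without either 28 day library, and was 4 with the replicate block. Of 38 tested genes for interferon signalling and other interferon targets, also chosen after the members were seen, 2 fell and 4 rose at 7 days, and 9 fell at 28 days. Over all tested genes 2.27% fell and 13.2% rose at 7 days, and 1.54% fell at 28 days. Those 9 became 3 with only the 2 groups compared or without either 7 day library, 5 with the replicate block, 4 without control replicate 2 or 28 day replicate 1, and 0 without control replicate 1 or with no filter. These 38 include 2 members, and at 28 days 0 were called higher by limma. At an unadjusted p under 0.05, 24 were lower and 3 higher then, with no share of all tested genes to set beside them. In 28 against 7 days 10 of the 38 fell, where 4.26% of all tested genes did, among them Irf9, an interferon regulatory factor, by 0.98 (limma adjusted p = 0.0475). Those 10 became 3 after median ratio scaling or quantile normalization, 4 with the replicate block, 1 with no filter, 0 without either 7 day library, 2 without 28 day replicate 1 and 19 without 28 day replicate 2. Macrophage and fibroblast markers moved the same way between the infusion times, as 6 of 8 and 4 of 8 fell at 28 relative to 7 days. Against control, 7 of 8 macrophage markers rose at 7 days and 0 were called lower at 28 days. The part of these cells was not tested. The 9 T and B cell markers summed to at most 2.32 RPKM in any library and none reached the level for testing.

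**Figure D2:**
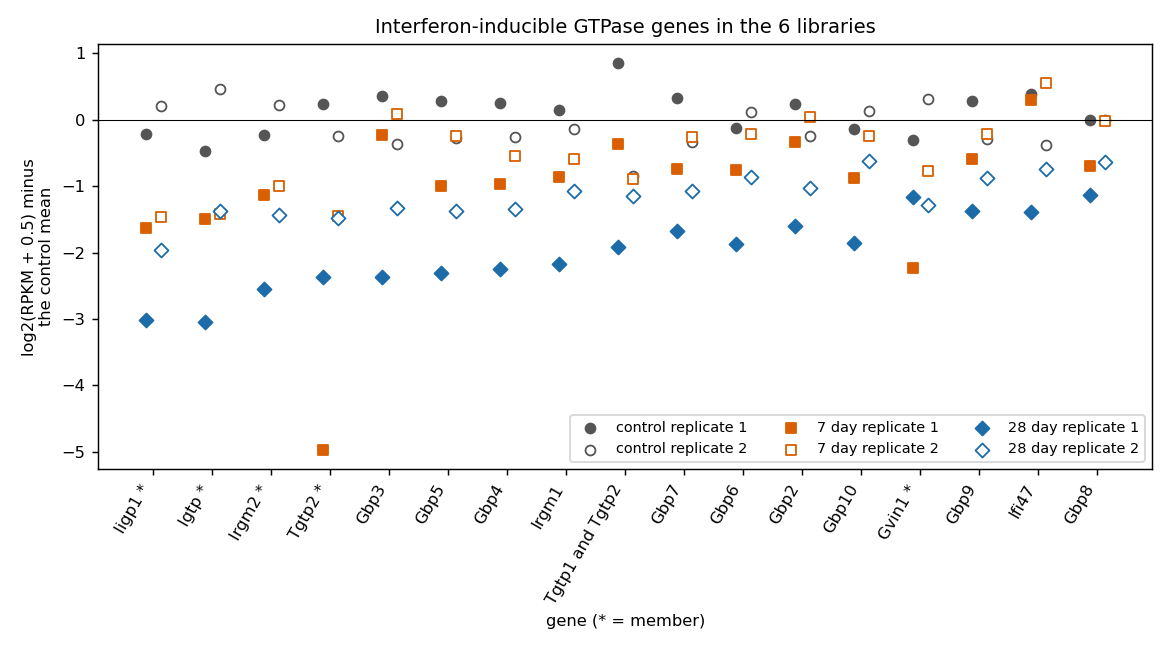
Points are the 17 tested interferon-inducible GTPase genes in each library, as log2(RPKM + 0.5) minus the mean of the controls; filled symbols are replicate 1, open symbols replicate 2 and asterisks mark members. The 28 day libraries lie below both controls in all 17 genes, as the rule requires of the 5 members, with replicate 1 the lower of the pair in 16.

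Genes of fuel use, amino acid breakdown and mitochondria formed the largest role group, with 17 members at a median of 57.2% of control at 7 days and 50.5% at 28 days. Gpcpd1, a phosphodiesterase that splits glycerophosphocholine, had 117 and 105 RPKM in controls, 45.4 and 48.6 RPKM at 7 days and 42.7 and 47.8 RPKM at 28 days. Slc25a34, a mitochondrial carrier, had 91.5 and 84.2 RPKM in controls, 49.4 and 55.6 RPKM at 7 days and 52.9 and 53.7 RPKM at 28 days. Both genes were nearly level between the infusion times. Slc25a33, the mitochondrial pyrimidine nucleotide carrier, had 16.95 and 19.1 RPKM in controls, 6.65 and 6.85 RPKM at 7 days and 8.01 and 8.17 RPKM at 28 days, so that the infused groups did not overlap and 28 days was the higher.

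Nampt, the rate-limiting enzyme of NAD salvage, had 69.3 and 64.5 RPKM in controls, 34.2 and 35.05 RPKM at 7 days and 29.8 and 27.9 RPKM at 28 days. Slc22a5, the carnitine transporter that supplies fatty acid oxidation, had 13.5 and 11.6 RPKM in controls, 8.24 and 6.74 RPKM at 7 days and 5.36 and 5.78 RPKM at 28 days. In both of these genes the 28 day libraries lay below both 7 day libraries.

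Amino acid enzymes were represented by Dbt, the core of the branched-chain dehydrogenase complex, and Ppm1k, the phosphatase that activates it. Dbt had 24.4 and 23.4 RPKM in controls, 15.1 and 14.1 RPKM at 7 days and 16.02 and 14.6 RPKM at 28 days. Ppm1k had 16.7 and 17.7 RPKM in controls, 10.6 and 10.2 RPKM at 7 days and 9.91 and 10.6 RPKM at 28 days. Both stayed between 59.9% and 64.1% of control at both times. Prodh, which starts proline breakdown, was at 52.3% of control at 7 days and 56.0% at 28 days. Gpt2, the mitochondrial alanine transaminase, was at 65.7% and 59.2%. Pdp2, a phosphatase that activates pyruvate dehydrogenase, was at 62.6% and 55.2%, and Fbp2, the muscle fructose bisphosphatase, at 57.2% and 62.6%.

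The remaining members of this group were Coq10b, needed for coenzyme Q function, Mid1ip1, a regulator of lipid synthesis, Polg2, the accessory subunit of the mitochondrial DNA polymerase, and Aldh1l2, a mitochondrial folate enzyme. With them came 4833442J19Rik, the lysine methyltransferase gene now named Etfbkmt. These lay between 48.0% and 59.5% of control at 7 days and between 42.5% and 59.9% at 28 days. Coq10b is shown because it was the only member whose promoter held both an E-box (CACGTG) and a D-box core (TTANGTAA), the elements bound by clock factors and by the PAR bZIP factors whose genes were left out by name. Its promoter is chr1:55052520-55052819 on the plus strand of GRCm38.p6, with both motifs in capitals and the D-box core read on the reverse strand.
Coq10b: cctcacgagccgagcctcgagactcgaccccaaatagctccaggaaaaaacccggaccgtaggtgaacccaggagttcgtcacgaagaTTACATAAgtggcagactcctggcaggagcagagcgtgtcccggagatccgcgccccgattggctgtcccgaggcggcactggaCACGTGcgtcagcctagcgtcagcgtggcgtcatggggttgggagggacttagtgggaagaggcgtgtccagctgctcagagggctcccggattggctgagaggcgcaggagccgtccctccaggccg

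Coq10b had 27.2 and 27.8 RPKM in controls, 15.5 and 10.9 RPKM at 7 days and 17.96 and 14.95 RPKM at 28 days. Its infused groups overlapped, with 28 minus 7 days at 0.32 (SE 0.17, limma adjusted p = 0.318) and at 0.08 to 0.56 without 1 library. An E-box was present in 7 of 59 member promoters, 11.9% against 10.7% of the 7443 compared. A D-box core was present in 3, those of Ces1b, Ces1g and Coq10b, or 5.08% against 1.41%. Of the other motifs searched on both strands, TATAAA was in 8 (13.6% against 7.31%), GAS in 6 (10.2% against 6.6%), ISRE in 3 (5.08% against 3%) and the MEF2 frame, CTA and TAG 4 bases apart, in 2 (3.39% against 3.1%). The site TAGGTCA of ROR and REV-ERB receptors was in 1 (1.69% against 1.77%). The glucocorticoid response element, AGAACA and TGT 3 bases apart, was also in 1, Mid1ip1 (1.69% against 0.202%), and the ERR site TCAAGGTCA in 0 (against 0.255%). Member promoters had a median of 13 CpG dinucleotides, against 22 over the promoters compared, and a median G+C content of 59% against 61.3%.

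Enzymes of retinoid, ester and conjugation metabolism made up 9 members, at a median of 41.7% of control at 7 days and 48.0% at 28 days. Inmt, which methylates indole amines, had 19.5 and 15.8 RPKM in controls, 2.02 and 2.46 RPKM at 7 days and 7.46 and 3.24 RPKM at 28 days. It was at 12.7% of control at 7 days and 30.3% at 28 days, with both 28 day libraries above both 7 day libraries. The difference of 0.998 (SE 0.32) had a limma adjusted p of 0.133, and without 28 day replicate 2 it was 1.54 and passed (limma adjusted p = 0.0114). Without 28 day replicate 1 it was 0.45 (limma adjusted p = 0.237).

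Cyp26b1, which breaks down retinoic acid, had 4.005 and 2.74 RPKM in controls, 0.837 and 0.624 RPKM at 7 days and 0.806 and 0.966 RPKM at 28 days. Aldh1a7, an aldehyde dehydrogenase of the retinal family, had 3.53 and 3.05 RPKM in controls, 1.72 and 1.97 RPKM at 7 days and 2.01 and 1.14 RPKM at 28 days. The infused libraries overlapped in both genes. The carboxylesterases Ces1d, Ces1b and Ces1g lie in 1 gene cluster and are similar in sequence, so their reads may have been shared. Ces1d had 79.9 and 73.6 RPKM in controls, 47.0 and 32.9 RPKM at 7 days and 50.4 and 32.6 RPKM at 28 days, the most abundant of the 3. Ces1b was at 47.8% of control at 7 days and 54.4% at 28 days, and Ces1g at 31.8% and 35.5%. The glutathione transferases Gsta3 and Gstt2 were at 40.3% and 41.7% of control at 7 days and at 48.0% and 52.5% at 28 days. Mettl7a1, a methyltransferase-like protein of lipid droplets, was at 63.1% and 51.1%.

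Ubiquitin, endoplasmic reticulum and protein turnover genes numbered 10, at a median of 48.8% of control at 7 days and 42.0% at 28 days. Herpud1, a part of the machinery that degrades proteins of the endoplasmic reticulum, had the highest control level of all members, 140 and 144 RPKM. It had 46.3 and 56.2 RPKM at 7 days and 48.1 and 65.2 RPKM at 28 days, and the infused groups overlapped. Fbxo32, the muscle ubiquitin ligase atrogin-1, had 24.9 and 25.5 RPKM in controls, 16.0 and 16.1 RPKM at 7 days and 12.4 and 9.75 RPKM at 28 days. Its 28 day libraries were both lower than its 7 day libraries, by 0.52 (SE 0.13), with a limma adjusted p of 0.0712, the smallest of any member in this comparison. Without 28 day replicate 1 the difference was -0.69 and passed (limma adjusted p = 0.0367). It was -0.35 without 28 day replicate 2 (limma adjusted p = 0.111) and -0.37 after median ratio scaling (limma adjusted p = 0.214).

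Klhl38, a kelch protein of muscle and the protein-coding neighbour of Fbxo32, had 16.2 and 17.2 RPKM in controls, 8.11 and 8.07 RPKM at 7 days and 6.40 and 6.26 RPKM at 28 days. It too was lower in both 28 day libraries, by 0.33 (SE 0.10, limma adjusted p = 0.118). The difference was -0.19 after median ratio scaling (limma adjusted p = 0.374) and -0.16 after quantile normalization (limma adjusted p = 0.461). An unnamed transcript, Gm15943, overlaps exons of both genes on the opposite strand, and the sources used here do not say whether counting used strand. Klhl33, a related kelch gene, had 5.40 and 5.18 RPKM in controls, 2.73 and 2.48 RPKM at 7 days and 1.80 and 1.94 RPKM at 28 days, again lower in both 28 day libraries. Of 24 tested Klhl genes, a list chosen after the members were seen, 2 were called lower and 2 higher at 7 days, and 2 lower and 1 higher at 28 days. The lower ones were these 2 members, which the rule had picked for being low. Over all tested genes 2.27% were lower and 13.2% higher at 7 days, and 1.54% lower and 2.87% higher at 28 days.

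Rhobtb1, which links cullin ligases to their targets, had 34.4 and 35.7 RPKM in controls, 17.5 and 17.9 RPKM at 7 days and 22.6 and 19.7 RPKM at 28 days. Both of its 28 day libraries were the higher, by 0.24 (SE 0.11), which did not pass (limma adjusted p = 0.232). Crebrf, listed as A930001N09Rik, regulates CREB3 factors of the stress response and was at 47.8% of control at 7 days and 44.7% at 28 days. The ubiquitin ligase genes Lonrf1 and Shprh were at 40.3% and 67.0% of control at 7 days and at 34.4% and 61.6% at 28 days. The lysosomal genes Slc46a3, a transporter, and Npc1, the cholesterol exporter, were at 42.6% and 66.3% at 7 days and at 38.8% and 55.2% at 28 days.

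Ligands, receptors and other membrane genes numbered 12, at a median of 47.1% of control at 7 days and 48.9% at 28 days. Nmb, the precursor of the bombesin-like peptide neuromedin B, had 5.09 and 7.45 RPKM in controls, 1.32 and 1.85 RPKM at 7 days and 1.71 and 1.89 RPKM at 28 days. Angptl7, a secreted angiopoietin-like protein, had 6.32 and 3.51 RPKM in controls, 1.86 and 1.87 RPKM at 7 days and 1.81 and 1.29 RPKM at 28 days. Both lay between 25.3% and 38.1% of control at each infusion time.

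Among receptors, P2ry1, a Gq-coupled receptor for ADP, had 7.47 and 6.96 RPKM in controls, 3.56 and 3.38 RPKM at 7 days and 4.30 and 3.63 RPKM at 28 days. Adora1, the Gi-coupled adenosine A1 receptor that slows the heart, had 4.06 and 3.66 RPKM in controls, 2.54 and 2.26 RPKM at 7 days and 2.41 and 1.98 RPKM at 28 days. P2ry1 was above its 7 day level in both 28 day libraries, while the infused groups of Adora1 overlapped. Sorcs2, a sorting receptor for neurotrophins, was at 53.2% of control at 7 days and 60.4% at 28 days, and Mgl2, a galactose lectin of macrophages and dendritic cells, at 56.3% and 64.6%. Mgl2 was thus lower at 7 days, when 7 of 8 macrophage markers rose.

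Aqp4, a water channel, had 2.75 and 2.11 RPKM in controls, 1.15 and 0.803 RPKM at 7 days and 0.666 and 0.428 RPKM at 28 days, and reached 22.5% of control. Ano10, of the anoctamin channel and scramblase family, had 18.6 and 19.1 RPKM in controls, 10.8 and 9.20 RPKM at 7 days and 7.74 and 8.43 RPKM at 28 days. In both genes the 28 day libraries were the lower. Lgals4, a galectin, had 62.4 and 57.3 RPKM in controls, 30.01 and 25.2 RPKM at 7 days and 33.9 and 37.4 RPKM at 28 days, and here they were the higher (28 minus 7 days 0.37, SE 0.12, limma adjusted p = 0.141, and 0.24 to 0.49 without 1 library). Tmem82, a membrane protein gene next to Slc25a34, was at 39.5% of control at 7 days and 40.9% at 28 days. Cys1, a ciliary protein, was at 44.4% and 38.6%, and the tetraspanin gene Tspan4 at 61.0% and 68.3%.

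**Figure D3:**
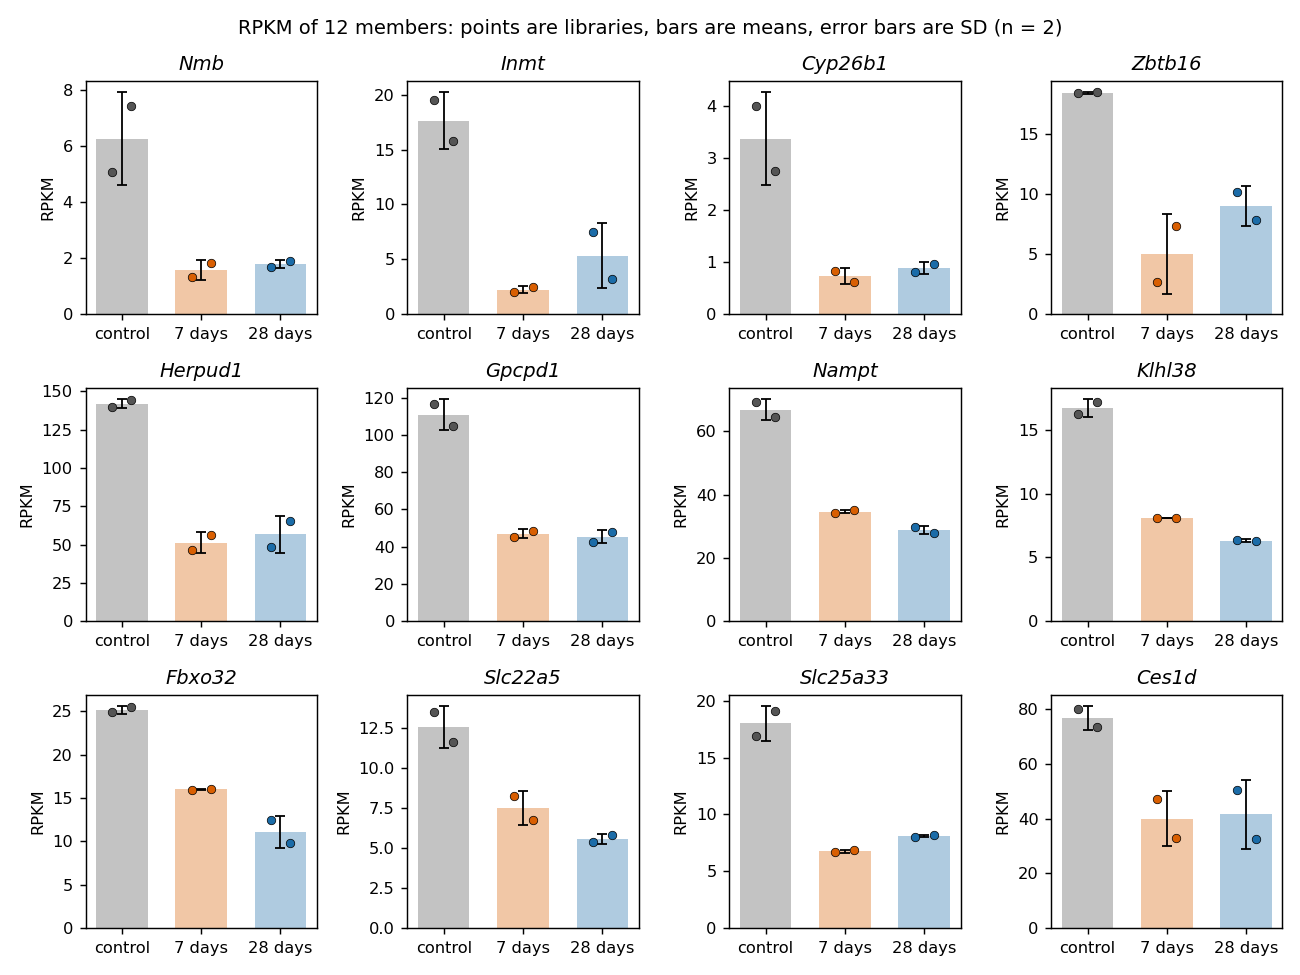
Each panel gives the RPKM of 1 member; points are libraries, bars group means and error bars the SD (n = 2). Klhl38, Fbxo32 and Slc22a5 were lower at 28 than at 7 days in both libraries, Inmt, Zbtb16 and Slc25a33 were higher, and Herpud1 and Gpcpd1 overlapped.

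Cytoskeletal and kinase signalling genes numbered 7, at a median of 51.1% of control at 7 days and 46.0% at 28 days. Ky, a Z-disc protein needed for muscle maturation, had 3.68 and 3.60 RPKM in controls, 1.66 and 2.27 RPKM at 7 days and 0.893 and 1.21 RPKM at 28 days. Its 28 minus 7 day difference of -0.66 (SE 0.18) had a limma adjusted p of 0.0927. Pik3ip1, an inhibitor of PI3 kinase, had 31.7 and 31.6 RPKM in controls, 16.3 and 14.2 RPKM at 7 days and 11.5 and 16.8 RPKM at 28 days. Actr3b, an actin nucleation subunit, Agtpbp1, an enzyme that trims tubulin tails, Tppp, a tubulin-binding protein, Rassf9 and the kinase gene Stk35 were at 50.6% to 67.0% of control at 7 days and at 45.8% to 62.0% at 28 days.

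Nuclear and RNA regulators numbered 12, at a median of 52.8% of control at 7 days and 55.4% at 28 days. Zbtb16, the transcription factor PLZF and a known glucocorticoid target, had 18.4 and 18.5 RPKM in controls, 2.68 and 7.37 RPKM at 7 days and 10.2 and 7.85 RPKM at 28 days. It stood at 27.3% of control at 7 days and 48.9% at 28 days, with 28 minus 7 days at 0.91 (SE 0.37, limma adjusted p = 0.207). That difference rests on the 7 day pair, as it was 0.26 without 7 day replicate 1 (limma adjusted p = 0.473) and 1.57 without 7 day replicate 2 (limma adjusted p = 0.0526). Cpeb3, a translational repressor that binds mRNA, had 19.5 and 18.8 RPKM in controls, 8.21 and 9.04 RPKM at 7 days and 10.7 and 12.4 RPKM at 28 days. Both 28 day libraries were the higher in these 2 genes, and the difference of 0.40 for Cpeb3 (SE 0.12) had a limma adjusted p of 0.110.

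Shld1, a DNA end protection factor listed as 1110034G24Rik, adjoins Gpcpd1 and had 31.3 and 30.8 RPKM in controls, 11.6 and 13.2 RPKM at 7 days and 12.8 and 13.3 RPKM at 28 days. Its level relative to control, 39.9% at 7 days and 42.1% at 28 days, was close to that of Gpcpd1, at 42.4% and 40.8%. Wee1, the kinase that holds back entry into mitosis and a clock-controlled gene, was at 50.2% and 54.4%. The histone deacetylase gene Hdac4 was at 57.2% and 53.4%. Ankrd12, Mtl5, Sgol2 and the zinc finger genes Zfp612, Zfp97, Zfp960 and Zfp874b lay between 47.5% and 63.8% of control at 7 days and between 52.4% and 61.7% at 28 days. Zfp97 and Zfp960 are neighbours, and close copies could share reads.

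The last 9 members were grouped as uncharacterised, predicted or noncoding, though 2410066E13Rik is a protein-coding gene now named Mturn. Mtrnr2l had 7.17 and 9.05 RPKM in controls, 1.52 and 3.53 RPKM at 7 days and 1.35 and 1.49 RPKM at 28 days. The noncoding gene Gm19277 had 8.99 and 7.89 RPKM in controls, 4.89 and 2.97 RPKM at 7 days and 1.68 and 3.79 RPKM at 28 days. Gm14440 is uncertain, with 2.52 and 2.79 RPKM in controls, 0.000149 and 0.000164 RPKM at 7 days, far below the worth of 1 read, and 0 in both 28 day libraries. It had too low a mean to be tested. Of 5 other predicted genes with symbols starting Gm144 and a mean of at least 1 RPKM, Gm14446 had 1.76 and 1.29 RPKM in controls, 1.82 and 1.67 RPKM at 7 days and 1.49 and 1.56 RPKM at 28 days. The other 4, of which Gm14403 and Gm14420 are members, had no higher mean in either infused group than in controls. Gm16119, 2610035D17Rik, BC031353, Gm14403, Gm14420 and 2410066E13Rik lay between 41.1% and 59.7% of control at 7 days and between 28.2% and 65.6% at 28 days.

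Some members are neighbours on their chromosome. Of the 79 protein-coding members matched to RefSeq, 6 pairs were direct protein-coding neighbours, namely Igtp and Irgm2, Iigp1 and F830016B08Rik, Fbxo32 and Klhl38, Gpcpd1 and Shld1, Tmem82 and Slc25a34, and Zfp97 and Zfp960. The 168 genes higher under the reversed limits also gave 6 pairs among 166 matched. Annotated exons were shared with another gene, mostly on the opposite strand, by 22 of the 83 matched members.

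The comparison of 28 with 7 days describes how far apart the infusion times were in genes low at both. Since the rule capped both infused levels, the shares of all tested genes beside these counts are a background, and nothing particular to the members is read from them. None of the 83 tested members passed in limma, where 4.26% of all tested genes were lower and 0.406% higher. At an unadjusted p under 0.05, 11 members were lower, against 19.1% of all tested genes, and 4 were higher, against 3%. Both 28 day libraries were below both 7 day libraries in 27 of the 84, against 41.2% of all tested genes, and above them in 13, against 9.12%. In the other 44 the infused groups overlapped.

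The median of 28 minus 7 days was -0.08 over the members and -0.12 over all tested genes, so the members' median lay close to the general shift. After median ratio scaling these medians were 0.04 and 0.02. The counts then turned to 16 members with both 28 day libraries lower, against 22.4% of all tested genes, and 30 with both higher, against 24.5%. By role, the median was lowest in the interferon-responsive group at -0.32 and highest in the retinoid, ester and conjugating enzymes at 0.13. Of the members reported here, Iigp1 had the lowest difference at -0.95 and Tgtp2 the highest at 1.28.

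**Figure D4:**
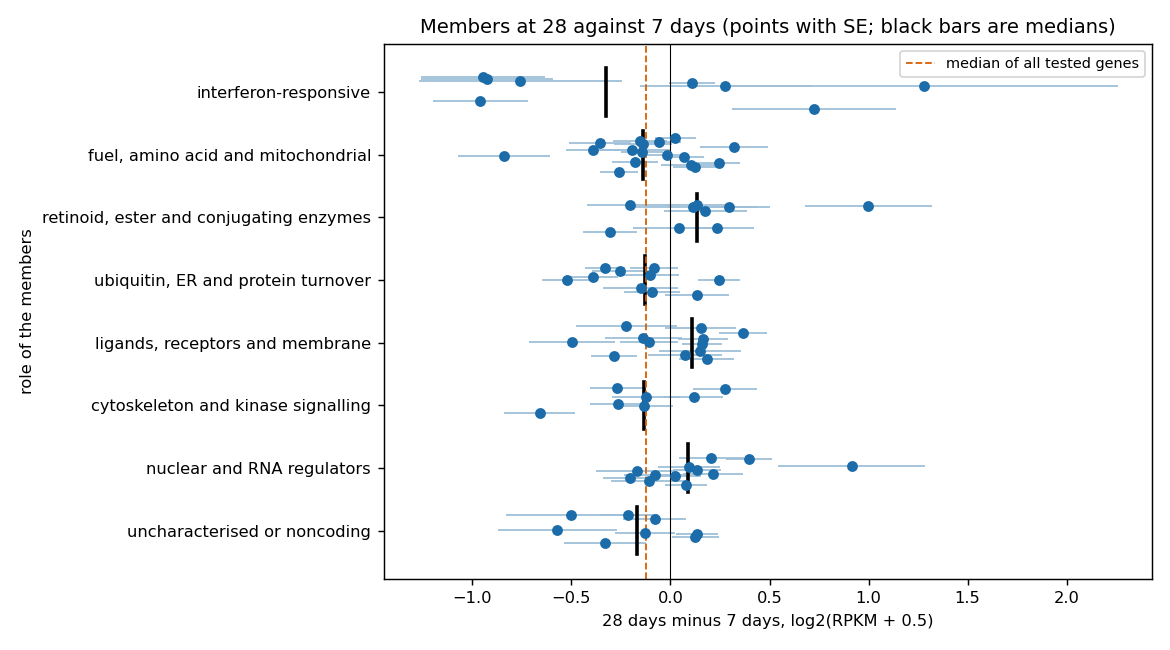
Points are the 83 tested members as 28 minus 7 days on the log2(RPKM + 0.5) scale with their SE, by role; black bars are role medians and the dashed line the median of all tested genes, -0.12. Most members lie within 0.5 of 0, with Iigp1 and Irgm2 among those farthest below and Tgtp2, Inmt and Zbtb16 farthest above.

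**Figure D5:**
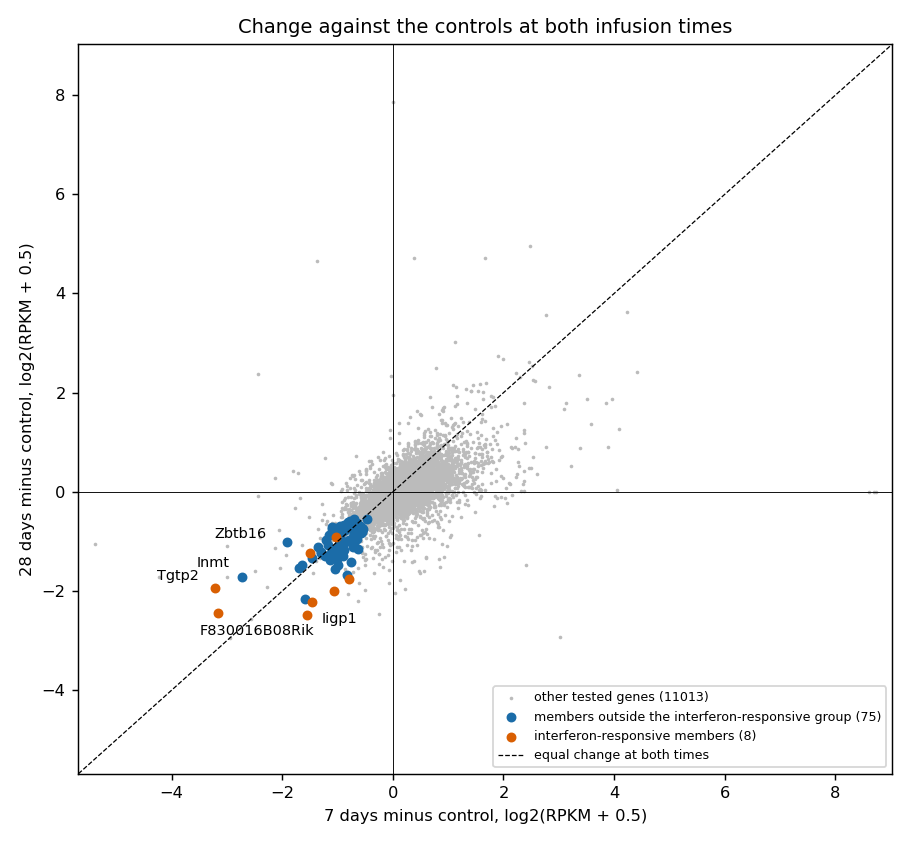
Each point is 1 tested gene, with its log2 difference from the controls at 7 days (horizontal) and at 28 days (vertical), which share the control libraries; members are coloured and the dashed line marks equal values. The rule places the members at the lower left, where Iigp1 lies below the line and Inmt, Tgtp2 and Zbtb16 above it.

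Other genes of the pathways these members belong to gave the setting. The 14 pathway lists held 534 tested genes, of which 50 fell and 73 rose at 7 days, and 20 fell and 42 rose at 28 days. Over all tested genes 2.27% were lower and 13.2% higher at 7 days, and 1.54% were lower and 2.87% higher at 28 days. These shares are the background for each list that follows. They include the members, so counts outside the members have no like background here, nor do counts at an unadjusted p. The rule placed its members among the lower list genes. Of the 514 list genes outside the set, 32 fell at 7 days and 3 at 28 days. In amino acid and creatine metabolism 7 of 42 tested genes fell and 2 rose at 7 days, and 4 fell and 2 rose at 28 days. The 4 lower at both times were the members Dbt, Ppm1k, Gpt2 and Prodh, and Bckdha, a subunit of the same complex as Dbt, fell at 7 days by 0.36 (limma adjusted p = 0.0466).

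In xenobiotic and amine metabolism 8 of 36 fell and 3 rose at 7 days. At 28 days 2 fell and 0 rose, with 8 lower and 3 higher at an unadjusted p under 0.05. Outside the members limma called 5 lower at 7 days and 0 at 28 days. Apart from the members, Fmo2, a flavin monooxygenase, had 16.1 and 13.4 RPKM in controls, 4.26 and 5.50 RPKM at 7 days and 11.98 and 8.74 RPKM at 28 days. It fell at 7 days by 1.51 (limma adjusted p = 0.00372), and rose at 28 relative to 7 days by 1.01 (limma adjusted p = 0.0325). In alcohol and retinoid metabolism 2 of 18 fell and 2 rose at 7 days, and 1 fell and 1 rose at 28 days. Leaving out the members, 1 fell at 7 days and 0 at 28 days. Adh1, an alcohol dehydrogenase, fell at 7 days by 2.06 (limma adjusted p = 0.00137), and rose at 28 relative to 7 days by 1.28 (limma adjusted p = 0.0158).

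Fatty acid uptake and oxidation had 2 of 40 lower and 2 higher at 7 days, and 1 lower, a member, and 1 higher at 28 days. Among 59 genes of oxidative phosphorylation 1 fell at 7 days, Ndufs1, and 0 rose. At 28 days 0 fell and 0 rose, with 2 lower and 6 higher at an unadjusted p under 0.05. Triglyceride storage had 2 of 25 lower and 1 higher at 7 days, and 1 of each at 28 days. Glucose and insulin signalling had 4 of 51 lower and 11 higher at 7 days, and 2 lower and 3 higher at 28 days. Outside the members 3 were lower at 7 days and 1 at 28 days. Of 37 tested Slc25a carriers, a list chosen after the members were seen, 3 fell and 6 rose at 7 days, and 3 fell and 1 rose at 28 days, with Slc25a33 and Slc25a34 among the lower ones.

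Sarcomere genes had 4 of 50 lower and 12 higher at 7 days, and 2 lower and 18 higher at 28 days. Their median difference from control was 0.06 at 7 days, against 0.14 over all tested genes, and 0.30 at 28 days, against 0.01. Those 2 were the members Fbxo32 and Ky. Tcap, the titin cap protein of the Z-disc, fell at 7 days by 1.11 (limma adjusted p = 0.00117) and rose at 28 relative to 7 days by 1.29 (limma adjusted p = 0.00264). Peptide hormones and growth factors had 3 of 42 lower and 11 higher at 7 days, and 1 lower, the member Nmb, and 6 higher at 28 days. G protein-coupled receptors and their regulators had 7 of 52 lower and 12 higher at 7 days, and 3 lower and 2 higher at 28 days. Outside the members 5 were lower at 7 days and 1 at 28 days.

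Calcium handling and other channels had 3 of 51 lower and 6 higher at 7 days, and 1 lower, the member Ano10, and 2 higher at 28 days. Glucocorticoid-responsive genes had 4 of 31 lower and 6 higher at 7 days. At 28 days 0 were lower and 3 higher, with 2 lower and 9 higher at an unadjusted p under 0.05. Klf15, a glucocorticoid-induced regulator of amino acid use, fell at 7 days by 0.80 (limma adjusted p = 0.0155) and rose at 28 relative to 7 days by 0.69 (limma adjusted p = 0.0494). Nuclear receptors and their coactivators had 2 of 29 lower and 1 higher at 7 days, and 0 of either at 28 days, where 4 were lower and 4 higher at an unadjusted p under 0.05. Clock genes outside the names left out had 3 of 15 lower and 4 higher at 7 days, and 2 lower, the members Nampt and Wee1, and 3 higher at 28 days. Usp2, a clock-controlled deubiquitinase, fell at 7 days by 1.28 (limma adjusted p = 0.00250). Zinc finger genes with Zfp symbols, chosen after the members were seen, had 9 of 229 lower and 4 higher at 7 days. At 28 days 3 were lower and 0 higher, with 41 lower and 6 higher at an unadjusted p under 0.05. Leaving out the members, limma called 6 lower at 7 days and 1 at 28 days.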

How the data were processed

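Hearts of wild-type mice were profiled in 6 libraries, 2 per group. Per the file headers, the deposited table gives RPKM. The tools HTSeq, DESeq2, Bowtie 0.12.9 and TopHat2 2.0.12 and the builds mm8 and mm9 come, with no roles, from the submitters' processing notes. Annotation and strand use were not given in the sources used here.

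Members were found on RPKM as deposited. They, their role groups and the lists were chosen with earlier results of these data known. Genes averaging 1 RPKM or more were fitted on log2(RPKM + 0.5), a scale that understates changes of low genes. limma 3.58.1 in R 4.3.3 was used with group means over all 6 libraries, a mean-variance trend, two-sided tests and Benjamini-Hochberg adjustment over all tested genes at 0.05. It was tested on simulated data. No count test was run, since RPKM are not counts. Every member could be named. The 20 with the largest difference from control, members of pathway lists, those with the highest control levels and those nearest the limit were to be described in full. Genes outside the set were taken from the pathway lists. Promoters and neighbours came from RefSeq tables of GRCm38.p6, matched by symbol for 83 of 84 members, and shared exons from GENCODE M21. Since these differ from the builds of the files, no coordinates of the files were used. A library left out leaves its partner assumed to vary like the other groups. Results of 2 members are not reported here, though counts and medians include them.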

Additional observations from a re-analysis of the deposited data

How the results depend on the processing

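Depth and the pairs of libraries limit what could be seen, since a difference between 28 and 7 days had to be large against a spread estimated with 3 residual degrees of freedom. The number of members, 84, became 132 at a fold limit of 1.3, 14 at 2 and 128 after quantile normalization, which kept 84, 14 and 82 of them, and 104 to 160 without 1 library. Members called lower at 7 days, 71, became 37 with a mean RPKM of at least 5, which tested 43 of them, and 19 to 79 without 1 library. At 28 days 65 became 36 with that filter, 10 with no filter, 41 with only the 2 groups compared, and 6 to 45 without 1 library. Between 28 and 7 days 0 to 4 members were called lower and 0 to 1 higher without 1 library. Without 1 library, 28 minus 7 days ran from -1.59 to 0.0803 in Igtp and from -0.49 to 3.05 in Tgtp2, and both changed sign.

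Over all tested genes, the 252 lower at 7 days became 167 with a mean RPKM of at least 5, 450 after median ratio scaling, 528 after quantile normalization and 52 to 353 without 1 library. The 1461 higher became 710 after median ratio scaling, 701 after quantile normalization and 340 to 1899. The 171 lower at 28 days became 16 with no filter, 69 with only the 2 groups and 10 to 147, and the 318 higher became 45 with no filter, 165 with only the 2 groups and 23 to 264. Between 28 and 7 days the 473 lower became 239 with no filter, 266 with a mean of at least 5, 217 after median ratio scaling, 212 after quantile normalization, 264 with only the 2 groups and 21 to 595. The 45 higher became 25, 29 and, with only the 2 groups, 23, and 6 to 94 without 1 library.

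Pathway list genes lower at 7 days, 50, became 28 with no filter, 76 after median ratio scaling, 89 after quantile normalization and 16 to 67 without 1 library, and the 73 higher became 34 and 33 under these scalings and 18 to 90. At 28 days the 20 lower became 3 with no filter, 13 with only the 2 groups and 2 to 21, and the 42 higher became 4, 27 and 3 to 34. Between 28 and 7 days 10 lower became 2, 6 after median ratio scaling, 5 after quantile normalization and 0 to 17, and 9 higher became 2 with no filter and 2 to 20. The cause of these shifts was not tested.

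The replicate numbers share only a number, since no label pairs the libraries and deviations of same-numbered libraries correlated at 0.15 for 7 days and control, -0.02 for 28 days and control and -0.01 for 28 and 7 days. With the replicate number as a block, 1 member was called lower in 28 against 7 days, genes lower at 28 days became 110, and pathway list genes higher between the infusion times became 5.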
